A study of Arabidopsis thaliana with 8 samples.

Results

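A stretch of neighbouring genes on chromosome 5 of *Arabidopsis thaliana*, running from AT5G06800 to AT5G09590, had lower transcript levels in seedlings overexpressing *TT2* and in seedlings overexpressing *MYB5* than in wild-type seedlings. Its members are the rows of the count table between these identifiers with a mean over all libraries of at least 1 CPM (counts scaled to the total of each library), without the flavonoid and glucosinolate genes AT5G07690 (*MYB29*), AT5G07700 (*MYB76*), AT5G07990 (*TT7*) and AT5G08640 (*FLS1*). This left 189 members of the 272 rows in the stretch, among 28496 rows in all and 18197 rows with at least 1 CPM. In the TAIR10.1 annotation of RefSeq the members lie between bases 2103115 and 2978750 of chromosome 5, over 876 kb, with 101 members on the plus strand and 84 on the minus strand. Of the 185 members found in that annotation, 184 code for proteins and 1 is a microRNA gene; the other 4 rows are upstream reading frames of annotated genes. The ends of the stretch were chosen on the measured ratios of the overexpressors to Col-0, so the lower level in these ratios is how the stretch was found, and every comparison with Col-0 below is a description, from which no test is read.

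The libraries were 3 from *TT2* OE seedlings (O2, R2 and U2), 2 from *MYB5* OE seedlings (N2 and Q2) and 3 from seedlings of the wild-type accession Col-0 (M2, P2 and S2), and all were of whole seedlings aged 6 days, grown without stress at 22 °C under 8 h of light. The overexpressors carried the *TT2* or the *MYB5* coding sequence behind the CaMV 35S promoter, which is active in most tissues, in the Col-0 background, after transformation by floral dip. By the study's account the libraries of a genotype are independent biological replicates, while the transformed line behind each library is not given in the sources used here. Outside the stretch the libraries clustered by sets rather than by genotype: set 1 held O2, N2 and M2, set 2 held R2, Q2 and P2, and set 3 held U2 and S2. The labels do not name these sets, which were found in the data, and the ratios below were formed within them, as O2/M2, R2/P2 and U2/S2 for *TT2* OE and N2/M2 and Q2/P2 for *MYB5* OE. Both overexpressors share the Col-0 libraries M2 and P2, so their ratios are not independent of each other.

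*TT2* and *MYB5* encode R2R3-MYB transcription factors that act with bHLH and WD40 partners and are best known from the seed coat, where they switch on proanthocyanidin and mucilage genes. Neighbouring plant genes are mostly transcribed one by one, each from a promoter of its own, and genes of unrelated function lie side by side. A run of unrelated neighbours with a like change in level is therefore described here by position as well as by the role of each gene.

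Total counts ranged from 35496351 to 48428855 per library, of which the top 10 genes held 7.57% to 9.82%. *TT2* stood at 439 to 536 CPM in the *TT2* OE libraries and at 0.32 CPM or less in the other libraries, and *MYB5* stood at 235 to 282 CPM in the *MYB5* OE libraries and at 0.16 CPM or less in the others, so the transgenes matched the labels. Leaf, root and seed marker genes were listed to check the labelled tissue. Their sums were 39186 to 42003 CPM in the overexpressors and 36430 to 40287 CPM in Col-0 for 4 leaf genes, and 2954 to 3449 CPM in the overexpressors and 2774 to 3293 CPM in Col-0 for 5 root genes. Within the sets the leaf sum was higher in the overexpressor in all 5 pairs, at 39186 CPM in O2 and 40714 CPM in N2 against 36430 CPM in M2, at 41169 CPM in R2 and 42003 CPM in Q2 against 36843 CPM in P2, and at 41673 CPM in U2 against 40287 CPM in S2. The root sum was lower in N2 than in M2 and higher in the overexpressor in the other 4 pairs. The seed genes stayed at or near 0, with 0.60 to 1.04 CPM in the overexpressors and 0.45 to 0.85 CPM in Col-0 in sum. Their part in the level of the stretch was not tested, and in these bulk samples fewer cells of a type and less RNA per cell cannot be told apart.

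The 189 members added up to less transcript in both overexpressors than in Col-0. Their summed level was 6616, 6349 and 6450 CPM in the *TT2* OE libraries O2, R2 and U2, 6575 and 6298 CPM in the *MYB5* OE libraries N2 and Q2, and 8748, 8671 and 8592 CPM in the Col-0 libraries M2, P2 and S2. The 5 overexpressor libraries all lay below the 3 Col-0 libraries, and *TT2* OE and *MYB5* OE overlapped each other. The means were 6472 ± 135 CPM (SD, n = 3) in *TT2* OE, 6437 ± 196 CPM (SD, n = 2) in *MYB5* OE and 8670 ± 78.1 CPM (SD, n = 3) in Col-0, or 0.746 and 0.742 of the Col-0 mean. On the log2 scale the sums were lower by 0.40 in O2/M2, 0.45 in R2/P2 and 0.41 in U2/S2 for *TT2* OE, and by 0.41 in N2/M2 and 0.46 in Q2/P2 for *MYB5* OE.

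**Figure D1:**
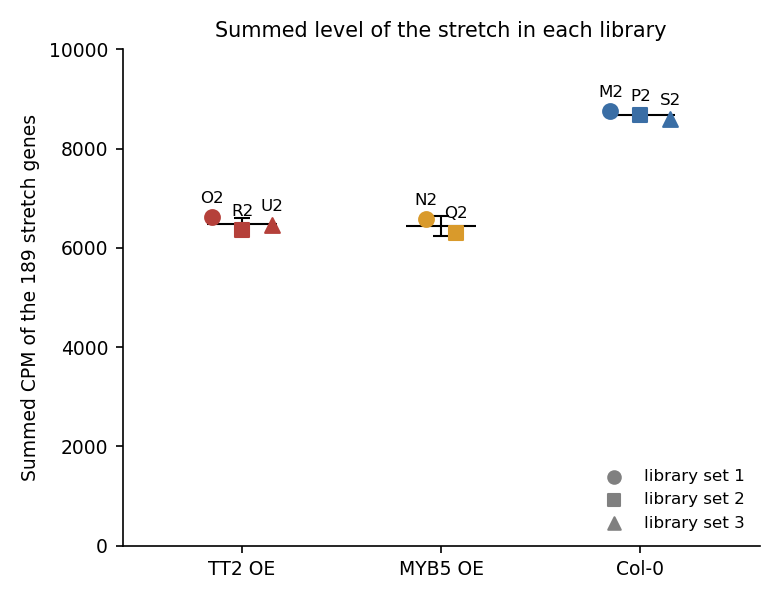
Summed level of the 189 stretch genes, in CPM (vertical axis), in each library of *TT2* OE, *MYB5* OE and Col-0. Points are libraries, their shape gives the library set, and bars show the group mean and its SD; the overexpressors lie between 6298 and 6616 CPM and Col-0 between 8592 and 8748 CPM.

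The lower level was shared by nearly all members and was of a like size from gene to gene. As log2 ratios of CPM + 0.1, the median member stood at -0.41 in O2/M2, -0.48 in R2/P2 and -0.43 in U2/S2 for *TT2* OE, and at -0.49 in N2/M2 and -0.50 in Q2/P2 for *MYB5* OE. Over all 18197 genes the same medians were 0.01, -0.08 and -0.02 for *TT2* OE and -0.02 and -0.09 for *MYB5* OE. Between 178 and 182 of the 189 members lay below 0 in each ratio, and 161 members (85.2%) did so in all 5 ratios, against 14.4% of all genes with at least 1 CPM. A further 17 members were below 0 in 4 ratios, 7 in 3 ratios, 3 in 2 ratios and 1 in none. All 5 overexpressor libraries lay below all 3 Col-0 libraries for 72 members, while 1.49% of all genes did so. Because the members were chosen on these ratios, nothing more is read from the counts.

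Averaged over the 5 ratios, the median member was at -0.46 (0.725 of Col-0), the middle of the members ran from -0.56 to -0.35 (0.678 to 0.785 of Col-0 at the quartiles), and 158 of 189 members were within 0.25 of the median. Between -0.8 and -0.2 lay 169 members, while 15.1% of the genes outside the stretch fell in that range. The distance between the quartiles was 0.21 for the members and 0.20 for the genes outside, so the members were displaced as a group and were about as spread as other genes. In each single ratio the members' quartiles also stood about as far apart as those of the genes outside, at 0.25 against 0.23 in N2/M2, 0.35 against 0.36 in Q2/P2, 0.31 against 0.30 in O2/M2, 0.29 against 0.31 in R2/P2 and 0.30 against 0.32 in U2/S2.

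The ratio of *TT2* OE to *MYB5* OE was not itself used to choose the members, and it was tested. The test is still not independent of that choice. The stretch was chosen as lower in both lines, from ratios that share M2 and P2, which can favour members alike in both lines. Within set 1 the median member of O2/N2 was at 0.06 and the median of all genes at 0.04, and within set 2 the median member of R2/Q2 was at 0.01 and that of all genes at 0.02. With edgeR's quasi-likelihood test over 20382 genes and Benjamini-Hochberg adjustment, 0 of the 189 members differed between *TT2* OE and *MYB5* OE, beside 0.172% of all genes. At an unadjusted p under 0.05 there were 6 members, 5 of them higher and 1 lower in *TT2* OE, against 797 of all 20382 genes in either direction, and DESeq2 also called 0. The lowest adjusted p among the members was 0.437, for AT5G09480, and the fitted differences had a median of 0.01 and reached at most 0.76 in size on the log2 scale. That no member passed the threshold does not show that the lines had equal levels.

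Among the Col-0 libraries alone the stretch did not stand apart. The median member was at -0.07 in P2/M2, 0.02 in S2/M2 and 0.04 in S2/P2, and the medians of all genes were -0.03, 0.08 and 0.09. Between P2 and M2 or between S2 and M2, 30 members differed more than 2-fold, and S2/P2 was not used for this count. In each single pair of Col-0 libraries the share past 2-fold was no larger than over all genes. The share was 10.1% of members and 12.1% of all genes between P2 and M2, 11.6% and 12.5% between S2 and M2, and 4.23% and 6.79% between S2 and P2. Those 30 had a median overexpressor ratio of -0.41, with 20 of them lower in all 5 ratios, and the other 159 had a median of -0.47, with 141 lower in all 5.

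**Figure D2:**
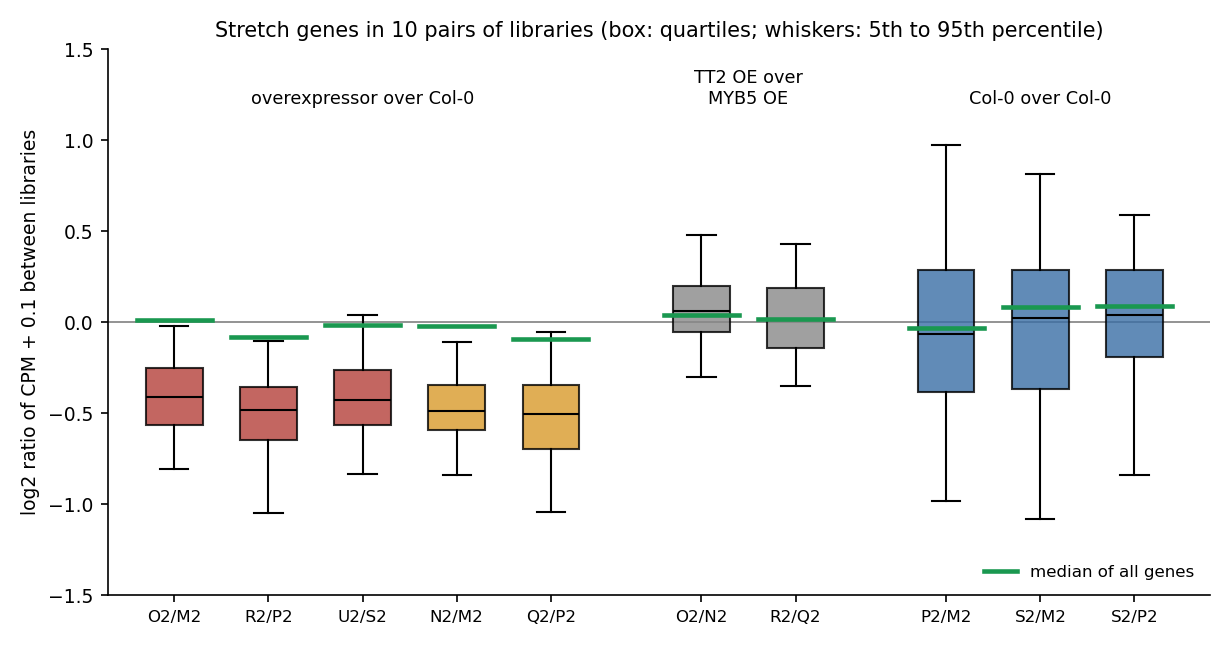
Log2 ratios of CPM + 0.1 of the 189 stretch genes in 10 pairs of libraries (horizontal axis: 5 overexpressor over Col-0, 2 *TT2* OE over *MYB5* OE, 3 Col-0 over Col-0). Boxes span the quartiles, whiskers the 5th to 95th percentile, and green lines mark the median of all 18197 genes; the medians lie between -0.50 and -0.41 in the overexpressor over Col-0 pairs and between -0.07 and 0.06 in the others.

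By position, the ratios are described in steps of neighbouring genes, and the ends were themselves chosen on these ratios. Next to the ends single genes did not divide cleanly, with AT5G06770 outside at -0.18 and the members AT5G06820 and AT5G09540 at -0.18 and -0.08. Every expressed gene of the genome was placed in steps of 20 neighbours, and 8 of 907 steps (0.882%) had a median below -0.3 in all 5 ratios. All 8 lay wholly or partly in the stretch, and 0 steps had a median above 0.3 in all 5. The first of the 8 began at AT5G07270, so the genes of the stretch before it lay in steps that did not pass. With steps of 10 neighbours, 14 of 1817 were below -0.3, all of them in or across the stretch, and 0 were above 0.3. Around the stretch, steps of 20 were also counted anew from AT5G04000 to AT5G13000, and these are not the 8 steps above. The 8 wholly inside the stretch had medians of the mean ratio of -0.54 to -0.33, while the 23 outside it had -0.14 to 0.04. The lowest step inside, AT5G07640 to AT5G07890, stood at -0.54 with 19 of 20 genes lower in all 5 ratios. The highest, AT5G06980 to AT5G07270, stood at -0.33 with 15 of 20, and its median was -0.21 in O2/M2. Across the 185 members with a position, the mean ratio had no trend along the stretch (Pearson's r of -0.01, Spearman's rho of -0.03, a description over members that share all 8 libraries).

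**Figure D3:**
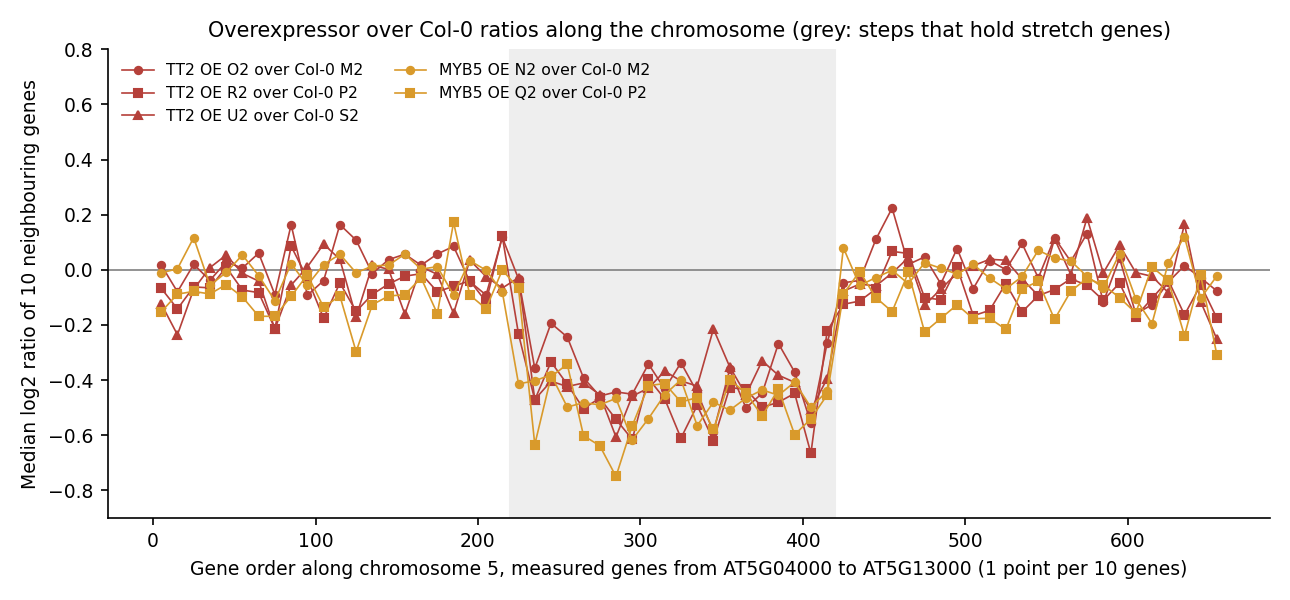
Median log2 ratio of 10 neighbouring genes (vertical axis) by gene order along chromosome 5 (horizontal axis, measured genes from AT5G04000 to AT5G13000), 1 line for each overexpressor over Col-0 pair. The grey band marks the steps that hold genes of the stretch; over steps of 20 genes the medians of the means were -0.54 to -0.33 inside and -0.14 to 0.04 outside.

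At the first end, the 3 measured genes just outside, AT5G06770, *EML2* (AT5G06780) and AT5G06790, had mean log2 ratios of -0.18, 0.11 and -0.12. The first 3 members inside were AT5G06800 at -0.49, AT5G06810 at -0.62 and the receptor-like kinase gene *SRF2* (AT5G06820) at -0.18. Between AT5G06790 and AT5G06800 lie 4059 bases without an annotated gene. AT5G06800, for a MYB-like protein, had 21.5, 25.1 and 23.2 CPM in *TT2* OE, 17.4 and 28.6 CPM in *MYB5* OE, and 25.9, 35.1 and 41.1 CPM in Col-0. It was lower than the Col-0 library of its set in every pair, but Q2 of *MYB5* OE lay above M2 of Col-0, so the groups overlapped.

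At the last end, the members AT5G09540, AT5G09580 and *MTHSC70-2* (AT5G09590) had mean log2 ratios of -0.08, -0.47 and -0.25, and the genes just outside, *SDH3-1* (AT5G09600), AT5G09620 and AT5G09630, had 0.12, -0.05 and -0.01. *MTHSC70-2*, which encodes a mitochondrial HSP70 chaperone, had 43.7, 88.9 and 71.3 CPM in *TT2* OE, 35.3 and 77.3 CPM in *MYB5* OE, and 49.6, 101 and 71.5 CPM in Col-0. In set 3 U2 and S2 were nearly level. Its neighbour *SDH3-1*, for a subunit of succinate dehydrogenase, had ratios of 0.42, -0.22 and -0.01 in *TT2* OE and 0.26 and 0.14 in *MYB5* OE, of mixed sign. The annotated genes stand 74 bases apart, at chr5:2978751-2978824, and this run is shown because the last end of the stretch falls across it (plus strand, TAIR10.1, all lower case since no element is marked):
last end: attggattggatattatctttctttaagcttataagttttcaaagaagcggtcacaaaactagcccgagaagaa

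The minimum level of 1 CPM also bounds the members. The members just inside it were AT5G07640 at 1.00 CPM, AT5G09290 at 1.01 CPM and AT5G08305 at 1.16 CPM, and the rows just outside were AT5G08250 at 0.992 CPM and AT5G08490 at 0.982 CPM. Beside the 4 genes left out, 79 rows of the stretch were under 1 CPM, and 41 of them had 0 counts in every library. Summed over those 79 rows the counts were 235 to 321 in *TT2* OE, 268 and 472 in *MYB5* OE and 344 to 580 in Col-0, with log2 ratios from -1.05 to 0.37, and no direction is read from so few counts.

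In the fit over all genes, edgeR's quasi-likelihood test with Benjamini-Hochberg adjustment called 61 of 189 members lower and 0 higher in *TT2* OE than in Col-0, beside 0.711% of all genes lower. In *MYB5* OE it called 6 members lower and 0 higher, beside 0.0932% of all genes lower. The member AT5G08760 was higher at an unadjusted p under 0.05 in both lines, and DESeq2 called 1 member higher in *TT2* OE and 0 in *MYB5* OE. Of all genes called lower in *TT2* OE, 42.1% were members. Without adjustment, 153 members in *TT2* OE and 140 in *MYB5* OE were lower at p under 0.05, against 2601 and 1683 of all 20382 genes in either direction, and the fitted ratio was negative for 184 and 185 of the 189. *MYB5* OE had 2 libraries and *TT2* OE had 3, and the difference between the lines was the one tested above, so the counts of 61 and 6 do not show that the lines differ. The calls rest on the set term: with genotype alone in the model edgeR called 0 members in either line, with 56 lower in *TT2* OE and 39 in *MYB5* OE at an unadjusted p under 0.05, and DESeq2 with the set term called 75 and 35 lower. Leaving out 1 library left 3 calls without R2, 7 without P2, 8 without M2 and 19 without O2 in *TT2* OE, and 1 without P2 to 15 without S2 in *MYB5* OE.

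The 6 members called lower in both lines were AT5G06830, AT5G07030, *IPK2a* (AT5G07370), AT5G08300, AT5G09480 and *PELPK1* (AT5G09530). *IPK2a* encodes an inositol polyphosphate kinase, which makes the more highly phosphorylated inositols used in signalling. It had 32.9, 23.2 and 26.3 CPM in *TT2* OE, 35.0 and 19.3 CPM in *MYB5* OE, and 51.5, 37.0 and 39.0 CPM in Col-0, so every overexpressor library lay below every Col-0 library. AT5G08300 encodes the alpha subunit of succinyl-CoA ligase, an enzyme of the citric acid cycle. It had 43.5, 37.8 and 42.0 CPM in *TT2* OE, 40.1 and 31.4 CPM in *MYB5* OE, and 59.9, 57.5 and 56.1 CPM in Col-0, again with no overlap. Their mean log2 ratios were -0.68 and -0.59.

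AT5G07030 encodes an aspartyl protease, and AT5G06830 is annotated as an uncharacterized protein. AT5G07030 had 36.8, 39.7 and 20.6 CPM in *TT2* OE, 33.4 and 32.8 CPM in *MYB5* OE, and 59.9, 58.8 and 36.8 CPM in Col-0. AT5G06830 had 25.2, 10.5 and 11.7 CPM in *TT2* OE, 24.1 and 8.76 CPM in *MYB5* OE, and 37.6, 16.9 and 17.7 CPM in Col-0. For both genes the groups overlapped, since set 3 was low in *TT2* OE and Col-0 for AT5G07030 and set 1 was high in every genotype for AT5G06830, while each overexpressor library lay below the Col-0 library of its set. Their mean log2 ratios were -0.76 ± 0.12 and -0.69 ± 0.15 (SD over 5 ratios).

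**Figure D4:**
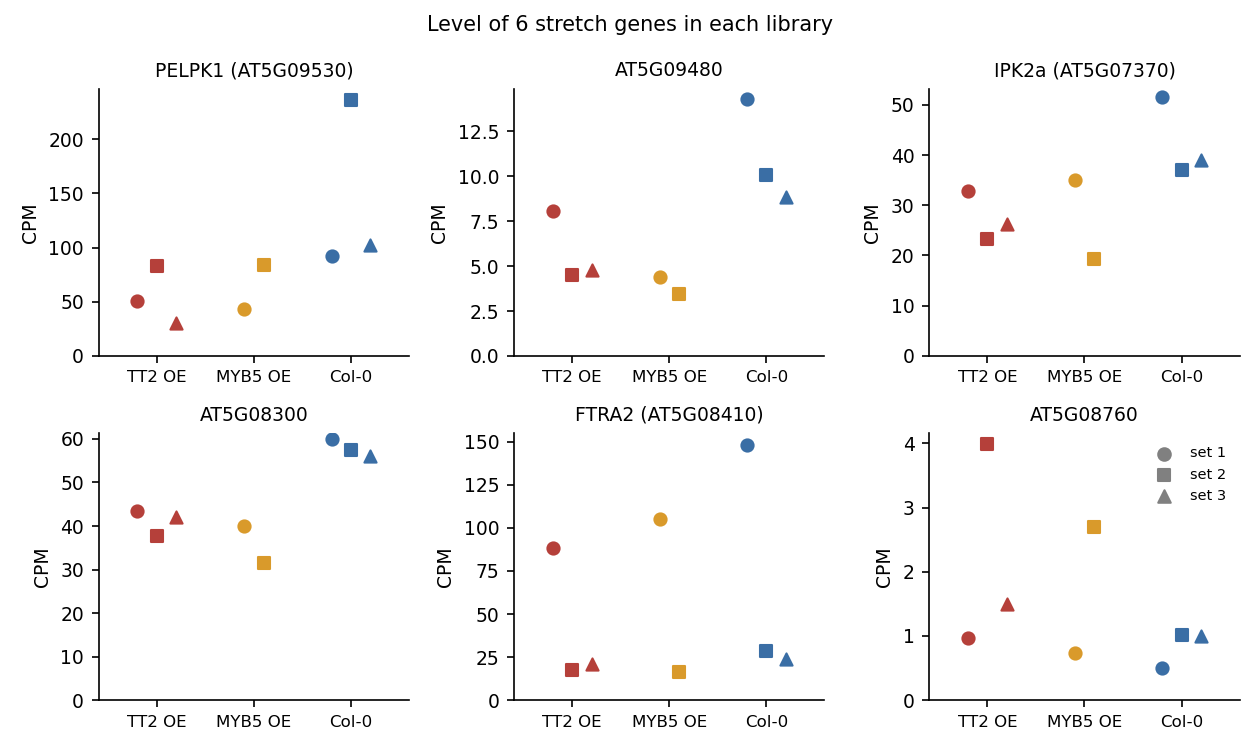
Level in CPM (vertical axes, each from 0) of 6 stretch genes in every library of *TT2* OE, *MYB5* OE and Col-0, with the library set given by the shape of the point. *PELPK1*, AT5G09480, *IPK2a* and AT5G08300 have all overexpressor libraries below Col-0; *FTRA2* is high in set 1 in every genotype, at 88.4 to 148 CPM, and AT5G08760 is higher in each overexpressor library than in the Col-0 library of its set.

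Of 12 listed genes for receptors, hormones and the cell wall, 10 were members. Of these, 8 were lower in all 5 ratios, with a median of -0.54 against -0.46 for all 189 members and -0.04 for all genes. Among the 10, edgeR called 2 lower in *TT2* OE and 1 in *MYB5* OE. Of all 189 members, 161 (85.2%) were lower in all 5 ratios, and edgeR called 61 and 6 lower. This list and those below are to be read beside these shares of the whole stretch. *PELPK1* encodes a proline-rich cell wall protein with repeats of the motif that gave it its name, and *PELPK2* (AT5G09520) is its neighbour and closest relative. *PELPK1* had 51.0, 82.8 and 30.0 CPM in *TT2* OE, 43.3 and 83.8 CPM in *MYB5* OE, and 92.6, 236 and 102 CPM in Col-0. All overexpressor libraries lay below all Col-0 libraries, and the library of set 2 was the highest of its genotype each time. *PELPK2* had 0.994, 4.23 and 0.958 CPM in *TT2* OE, 0.677 and 5.89 CPM in *MYB5* OE, and 1.54, 14.8 and 3.21 CPM in Col-0. It too was highest in set 2 in each genotype, which made its groups overlap.

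With mean log2 ratios of -1.34 ± 0.36 for *PELPK1* and -1.28 ± 0.48 for *PELPK2* (SD over 5 ratios), or 0.394 and 0.412 of Col-0, these neighbours were among the 3 lowest members. Reads of such related genes can be split between them in counting, and how reads that matched more than 1 place were treated is not given in the sources used here. The 250 bases before each annotated start are shown because the longest run that they share, 44 bases in capitals, was found in 0 of the other promoters among 18127 genes with at least 1 CPM; it ends next to the start of *PELPK1* and lies 63 to 106 bases before that of *PELPK2* (chr5:2961383-2961632 and chr5:2958972-2959221, minus strand, TAIR10.1, RefSeq).
PELPK1: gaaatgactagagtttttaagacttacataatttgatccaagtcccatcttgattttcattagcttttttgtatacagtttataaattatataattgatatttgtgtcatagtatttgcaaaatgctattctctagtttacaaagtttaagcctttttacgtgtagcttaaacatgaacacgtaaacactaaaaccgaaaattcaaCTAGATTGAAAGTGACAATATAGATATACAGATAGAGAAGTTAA
PELPK2: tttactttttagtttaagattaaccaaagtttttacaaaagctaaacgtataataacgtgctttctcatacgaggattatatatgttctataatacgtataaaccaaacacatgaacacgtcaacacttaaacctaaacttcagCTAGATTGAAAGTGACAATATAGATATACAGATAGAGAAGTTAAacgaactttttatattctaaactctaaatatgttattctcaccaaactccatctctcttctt

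AT5G09480 belongs to the same class of hydroxyproline-rich glycoproteins and lies a few genes before *PELPK2*. It had 8.06, 4.51 and 4.76 CPM in *TT2* OE, 4.42 and 3.45 CPM in *MYB5* OE, and 14.3, 10.1 and 8.87 CPM in Col-0. No overexpressor library reached the lowest Col-0 library, and the mean log2 ratio was -1.21. Its fitted difference between *TT2* OE and *MYB5* OE was 0.63 on the log2 scale (adjusted p = 0.437 by edgeR's quasi-likelihood test with Benjamini-Hochberg adjustment), with *TT2* OE the higher in both sets that hold both lines. The 250 bases before its start, shown for comparison with its relatives, hold none of the 4 elements searched below (chr5:2951702-2951951, minus strand):
AT5G09480: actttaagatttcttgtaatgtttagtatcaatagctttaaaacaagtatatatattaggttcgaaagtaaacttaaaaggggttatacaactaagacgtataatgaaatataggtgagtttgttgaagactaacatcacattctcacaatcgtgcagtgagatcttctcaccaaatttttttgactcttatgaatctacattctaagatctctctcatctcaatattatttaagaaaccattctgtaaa

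*PGIP1* (AT5G06860) and *PGIP2* (AT5G06870) lie next to each other and encode inhibitors of the polygalacturonases with which fungi break down pectin. *PGIP1* had 51.4, 37.8 and 20.9 CPM in *TT2* OE, 48.5 and 30.6 CPM in *MYB5* OE, and 65.3, 79.7 and 62.0 CPM in Col-0. It did not overlap between overexpressors and Col-0, but the size of its ratio varied widely between sets, at -0.34, -1.07 and -1.57 in *TT2* OE and -0.43 and -1.38 in *MYB5* OE. *PGIP2* had 23.1, 35.0 and 8.87 CPM in *TT2* OE, 17.99 and 28.2 CPM in *MYB5* OE, and 24.7, 30.0 and 13.8 CPM in Col-0. In R2 it was above P2, and its mean ratio was -0.21. *ERL2* (AT5G07180), a receptor kinase of the ERECTA family that acts in stomatal patterning, stood at -0.42, the laccase gene *LAC13* (AT5G07130) at -0.56 and the NADPH oxidase gene *RBOHA* (AT5G07390) at -0.75. *EXL4* (AT5G09440), of the EXORDIUM family, was not lower in N2/M2.

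For mitochondrial and energy metabolism, 12 of 13 listed genes were members, 11 of the 12 were lower in all 5 ratios, and the median was -0.48. Of the 12, edgeR called 5 lower in *TT2* OE and 1 in *MYB5* OE, beside 61 and 6 of all 189 members. Side by side lie AT5G08670, AT5G08680 and AT5G08690, which encode the beta subunit of the mitochondrial ATP synthase, which carries its catalytic sites. AT5G08670 had 285, 307 and 308 CPM in *TT2* OE, 293 and 299 CPM in *MYB5* OE, and 372, 419 and 454 CPM in Col-0. AT5G08690 had 173, 185 and 195 CPM in *TT2* OE, 194 and 185 CPM in *MYB5* OE, and 267, 296 and 263 CPM in Col-0. Neither gene overlapped between overexpressors and Col-0. AT5G08680 had 134, 186 and 180 CPM in *TT2* OE, 129 and 189 CPM in *MYB5* OE, and 172, 263 and 264 CPM in Col-0, where the low M2 of set 1 made the groups overlap.

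The mean log2 ratios of the ATP synthase genes were -0.45, -0.46 and -0.57, each with an SD of 0.12 or less over the 5 ratios. Their sequences are nearly identical, so the share of reads given to each is uncertain. In CPM per kb of exon, which allows levels to be compared between genes, AT5G08670 stood at 165, AT5G08690 at 99.8 and AT5G08680 at 82.9, and the first was the fourth highest member on that scale. The promoters of AT5G08670 and AT5G08690 are shown because both hold 3 matches in capitals to the site II element (TGGGCC or TGGGCT, either strand) close to the start, an element known from promoters of nuclear genes for mitochondrial and ribosomal proteins (chr5:2821252-2821501, minus strand, and chr5:2825411-2825660, plus strand). That of AT5G08680 held none.
AT5G08670: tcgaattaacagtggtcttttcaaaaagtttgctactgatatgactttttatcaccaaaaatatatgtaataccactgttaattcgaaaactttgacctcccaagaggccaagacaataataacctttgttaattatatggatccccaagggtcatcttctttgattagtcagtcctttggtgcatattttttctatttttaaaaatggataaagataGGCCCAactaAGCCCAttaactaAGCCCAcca
AT5G08690: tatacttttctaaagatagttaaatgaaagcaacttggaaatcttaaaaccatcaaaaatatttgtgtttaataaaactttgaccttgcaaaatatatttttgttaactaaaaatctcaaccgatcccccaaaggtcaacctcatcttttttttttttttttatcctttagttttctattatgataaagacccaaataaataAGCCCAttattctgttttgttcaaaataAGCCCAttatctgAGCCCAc

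*CI51* (AT5G08530), for a subunit of respiratory complex I, had 122, 88.6 and 142 CPM in *TT2* OE, 146 and 83.4 CPM in *MYB5* OE, and 214, 139 and 149 CPM in Col-0. In sets 1 and 2 it was clearly lower, with ratios of -0.81 and -0.65 in *TT2* OE and -0.55 and -0.74 in *MYB5* OE, and in U2/S2 it was at -0.07. *GDH2* (AT5G07440), a mitochondrial glutamate dehydrogenase, was the list's exception. It had 487, 192 and 198 CPM in *TT2* OE, 558 and 111 CPM in *MYB5* OE, and 509, 191 and 245 CPM in Col-0, so that it was high in set 1 in every genotype and not lower in all 5 ratios. The sirtuin gene *SRT2* (AT5G09230) and the gene of an outer membrane receptor (AT5G09420, named TOC64-V in the annotation) had mean ratios of -0.61 each.

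All 5 listed plastid genes were members and were lower in all 5 ratios, with a median of -0.41, and edgeR called 2 of them lower in *TT2* OE. In *MYB5* OE edgeR called 0, with 4 lower at an unadjusted p under 0.05 and 1 called by DESeq2. *HEMC* (AT5G08280), a porphobilinogen deaminase of chlorophyll and haem synthesis, was one of the highest members at 220.4 CPM per kb. It had 409.8, 319 and 279 CPM in *TT2* OE, 358 and 332 CPM in *MYB5* OE, and 479.6, 356 and 365 CPM in Col-0. The mean ratio was -0.26, and the high set 1 made the groups overlap.

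*FTRA2* (AT5G08410) encodes a subunit of the ferredoxin-thioredoxin reductase, which passes light-derived electrons to thioredoxins. It had 88.4, 17.4 and 21.02 CPM in *TT2* OE, 105 and 16.5 CPM in *MYB5* OE, and 148, 28.7 and 24.1 CPM in Col-0. Set 1 was several times above the other sets in every genotype, and within each set the overexpressors were the lower, with a mean ratio of -0.59. AT5G08650, for a GTP-binding translation factor of the LepA type, had a mean ratio of -0.54 with 213, 158 and 128 CPM in *TT2* OE, 216 and 156 CPM in *MYB5* OE, and 343, 223 and 163 CPM in Col-0. Here also the sets were ordered alike in *TT2* OE and Col-0.

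Among ribosomal genes, 3 of 5 listed were members, and all 3 were lower in all 5 ratios with a median of -0.40. None was called by edgeR in either line; all 3 were lower at an unadjusted p under 0.05 in each line, and DESeq2 called 2 in *TT2* OE and 0 in *MYB5* OE. AT5G09510, for cytosolic ribosomal protein S15, had 58.7, 73.6 and 64.4 CPM in *TT2* OE, 57.1 and 67.0 CPM in *MYB5* OE, and 74.97, 96.0 and 81.3 CPM in Col-0. The groups did not overlap, and the ratios kept between -0.52 and -0.34. The ribosomal protein S4 gene AT5G07090, at 168 CPM per kb, had a mean ratio of -0.29, and AT5G08180, for an L7Ae family protein, had -0.50.

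Transcription factors were the longest list, with 15 members of 18 listed genes; 11 were lower in all 5 ratios, the median was -0.42, and edgeR called 4 lower in *TT2* OE. In *MYB5* OE edgeR called 0 of them, with 9 lower at an unadjusted p under 0.05 and 3 called by DESeq2. *NAC080* (AT5G07680), of the NAC family, was the lowest of them at -0.75. It had 11.97, 8.49 and 14.3 CPM in *TT2* OE, 11.9 and 9.75 CPM in *MYB5* OE, and 18.4, 17.8 and 21.5 CPM in Col-0, with no overlap. *ATAF2* (AT5G08790), another NAC factor, known from wounding and pathogen responses, had 22.1, 15.8 and 19.9 CPM in *TT2* OE, 20.9 and 16.6 CPM in *MYB5* OE, and 30.4, 26.2 and 30.5 CPM in Col-0. AT5G09410, the calmodulin-binding activator *CAMTA1*, had 57.2, 58.4 and 68.7 CPM in *TT2* OE, 63.5 and 53.7 CPM in *MYB5* OE, and 90.1, 87.1 and 96.4 CPM in Col-0. These 3 factors were the listed ones whose overexpressor libraries all lay below all Col-0 libraries. Of all 189 members 72 did so, and of all genes 1.49%.

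*NAC082* (AT5G09330), the fourth factor called in *TT2* OE, had a mean ratio of -0.42, and the neighbouring bZIP genes *TGA2* (AT5G06950) and *TGA5* (AT5G06960), which act in salicylate responses, had -0.49 and -0.42. *BIM1* (AT5G08130), a bHLH partner in brassinosteroid signalling, was the most abundant factor of the list in CPM. It had 75.8, 114 and 122 CPM in *TT2* OE, 67.6 and 129.8 CPM in *MYB5* OE, and 83.7, 125 and 172 CPM in Col-0, and Q2 was above P2. AT5G08330, the TCP factor *CHE* of the circadian clock (named *TCP11* in the annotation), had 62.3, 58.5 and 51.3 CPM in *TT2* OE, 76.6 and 62.8 CPM in *MYB5* OE, and 109, 79.3 and 49.8 CPM in Col-0. It was lower in sets 1 and 2 and level in set 3, where U2/S2 was at 0.04.

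For membrane traffic and transport, 9 of 10 listed genes were members, 8 were lower in all 5 ratios, and the median was -0.45, with 4 called lower by edgeR in *TT2* OE. In *MYB5* OE edgeR called 0, with 5 lower at an unadjusted p under 0.05 and 1 called by DESeq2. *SYP132* (AT5G08080), the syntaxin of the plasma membrane, had 40.7, 40.8 and 44.6 CPM in *TT2* OE, 38.5 and 41.5 CPM in *MYB5* OE, and 54.1, 58.0 and 56.5 CPM in Col-0. It varied little between sets, so the overexpressors and Col-0 stood clearly apart, and its ratios had an SD of 0.07. The potassium transporter gene *KUP7* (AT5G09400) had a mean ratio of -0.57 and the lipid kinase gene AT5G09350 one of -0.56. The amino acid transporter gene *AAP2* (AT5G09220), at 117 CPM per kb, was at 0.12 in N2/M2 and lower in the other ratios.

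All 5 listed genes for protein repair and chaperones were members, with 4 lower in all 5 ratios, a median of -0.39, and 1 called lower by edgeR in *TT2* OE. In *MYB5* OE edgeR called 0, with 4 lower at an unadjusted p under 0.05 and 1 called by DESeq2. The gene called in *TT2* OE was AT5G07350, for the RNA-binding Tudor-SN protein of stress granules. It had 109, 111 and 128 CPM in *TT2* OE, 115 and 98.9 CPM in *MYB5* OE, and 162, 159 and 168 CPM in Col-0, with a wide gap between overexpressors and Col-0. *BAG3* (AT5G07220), a cochaperone, had a mean ratio of -0.39. The methionine sulfoxide reductase genes AT5G07460 and AT5G07470, neighbours that repair oxidized proteins, had -0.13 and -0.31, and the first of them was not lower in all 5. Between *TT2* OE and *MYB5* OE neither edgeR nor DESeq2 called a member of any list; at an unadjusted p under 0.05 edgeR had 1 mitochondrial gene, *MTHSC70-2*, and 1 gene of the receptor list, the sulfotransferase gene *ST2A* (AT5G07010), both higher in *TT2* OE.

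Beside the cell wall genes, the 10 lowest members were mostly of low level. The lowest of all was AT5G07475, for a copper-binding cupredoxin, with a mean ratio of -1.37. It had 0.795, 1.25 and 0.394 CPM in *TT2* OE, 0.702 and 1.60 CPM in *MYB5* OE, and 2.16, 3.12 and 1.65 CPM in Col-0. The groups did not overlap. AT5G06940, for a leucine-rich repeat receptor-like kinase, was at -1.03 with 2.98, 0.697 and 1.01 CPM in *TT2* OE, 2.03 and 0.906 CPM in *MYB5* OE, and 3.89, 2.15 and 2.51 CPM in Col-0. AT5G07730, the flavin monooxygenase gene AT5G07800, *SMC6A* (AT5G07660) of DNA repair and the helicase gene AT5G07810 had -0.99, -0.86, -0.79 and -0.76, at 6.53 CPM or less in every library.

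AT5G06940 and *TGA2* are transcribed in opposite directions from starts 68 bases apart, and this gap is shown because both genes were lower in all 5 ratios although their mean ratios were -1.03 and -0.49 (chr5:2150772-2150839, read on the plus strand in the direction of *TGA2*; no element is marked):
TGA2: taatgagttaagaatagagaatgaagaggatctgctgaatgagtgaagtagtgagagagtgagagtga

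The uncharacterized gene AT5G08760 went the other way, and was the 1 member higher in all 5 ratios. It had 0.972, 3.98 and 1.49 CPM in *TT2* OE, 0.728 and 2.70 CPM in *MYB5* OE, and 0.506, 1.01 and 0.996 CPM in Col-0. Each overexpressor library was above the Col-0 library of its set, but the set 1 overexpressors lay below P2 and S2, so the groups overlapped. The mean log2 ratio was 1.00 ± 0.60 (SD over 5 ratios), and edgeR did not call it in either line, while DESeq2 called it higher in *TT2* OE. It lies between members that were lower, and its promoter is shown as that of the exception, with 1 match to the E-box (CANNTG) in capitals (chr5:2854607-2854856, plus strand):
AT5G08760: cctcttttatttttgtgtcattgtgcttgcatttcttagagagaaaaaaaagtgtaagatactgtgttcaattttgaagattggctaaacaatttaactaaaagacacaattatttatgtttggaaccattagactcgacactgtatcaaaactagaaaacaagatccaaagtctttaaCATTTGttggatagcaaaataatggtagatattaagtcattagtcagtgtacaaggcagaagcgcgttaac

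The next highest members had ratios of mixed sign. AT5G07330, annotated as an iron-sulfur cluster protein, had 2.92, 1.25 and 1.77 CPM in *TT2* OE, 2.33 and 1.51 CPM in *MYB5* OE, and 1.28, 1.80 and 1.56 CPM in Col-0, with a mean ratio of 0.28 that was positive in sets 1 and 3 and negative in set 2. *GDPD6* (AT5G08030), a phosphodiesterase gene, had 0.508, 10.7 and 3.27 CPM in *TT2* OE, 0.452 and 14.5 CPM in *MYB5* OE, and 0.506, 11.4 and 3.71 CPM in Col-0. It followed the sets, low in set 1 and high in set 2 in every genotype that had them. Within the sets its ratios ran from -0.18 in U2/S2 to 0.34 in Q2/P2, with a mean of -0.01. AT5G08350, for a GRAM domain protein, was at 0.01, AT5G09540, for a DnaJ domain protein, at -0.08 and AT5G06990 at -0.12. Altogether 28 members were not lower in all 5 ratios, and 12 had a mean ratio above -0.2.

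The microRNA gene *MIR162a* (AT5G08185) gives rise to miR162, which is known to target *DCL1*, the enzyme that makes plant microRNAs. The reads counted here come from its longer precursor transcript and do not measure the mature microRNA. It had 3.62, 3.41 and 4.14 CPM in *TT2* OE, 3.16 and 2.89 CPM in *MYB5* OE, and 5.30, 5.58 and 4.98 CPM in Col-0. All overexpressor libraries lay below all Col-0 libraries, with a mean ratio of -0.63. The mature arms are shown as the products of this member, with bases 2 to 8 in capitals (chr5:2634936-2634956 and chr5:2634998-2635019, minus strand, read from TAIR10.1 at the RefSeq annotation):
ath-miR162a-3p: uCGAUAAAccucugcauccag
ath-miR162a-5p: uGGAGGCAgcgguucaucgauc

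The size of the ratio depended little on how strongly a member was expressed. The median of the mean ratio was -0.54 for 37 members at 1 to 5 CPM, -0.47 for 59 at 5 to 20 CPM, -0.45 for 71 at 20 to 80 CPM and -0.43 for 22 above 80 CPM. The quartiles stood furthest apart in the lowest class, by 0.37, and by 0.16 to 0.22 in the others. Members on the plus strand had a median of -0.43 and those on the minus strand -0.50. Across the 185 members with an annotation, the mean ratio had a Pearson's r of -0.13 and a Spearman's rho of -0.20 with exon length, and of 0.05 and 0.13 with mean CPM; these describe members that share all libraries. Of the members, 60 overlap another annotated gene, with a median of -0.50, and 125 do not, with a median of -0.45.

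Several members have a close copy elsewhere in the genome, which allowed genes of like function inside and outside the stretch to be set side by side. Of 18 listed pairs, 17 had a member; *GDI2* had 0 counts. The inside copy was lower in all 5 ratios in 15 of the 17 pairs, beside 85.2% of all members. For the outside copy this held in 2 of the 17 pairs, beside 14.4% of all genes. The medians of the mean ratios were -0.49 inside and -0.08 outside, against -0.46 for all members and -0.04 for all genes. The inside copy had the lower mean ratio in 16 of 17 pairs. Since the inside copies were chosen on these ratios, this describes the listed pairs and is no test.

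For Tudor-SN, AT5G07350 inside stood at -0.53 and *TSN2* (AT5G61780) outside at -0.08. For the inositol kinases, *IPK2a* stood at -0.68 and *IPK2b* (AT5G61760) at -0.08, and for the subunits of ferredoxin-thioredoxin reductase, *FTRA2* at -0.59 and *FTRA1* (AT5G23440) at 0.05. *CAMTA1* was at -0.58 and *CAMTA2* (AT5G64220) at -0.01, and the lipid kinases AT5G09350 and AT5G64070 were at -0.56 and -0.05. The ribosomal protein S4 genes AT5G07090 and AT2G17360 were at -0.29 and 0.07. For the glutamate dehydrogenases, *GDH2* was at -0.20 and *GDH1* (AT5G18170) at 0.36, above 0 in all 5 ratios.

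The chaperones *MTHSC70-2* and *mtHSC70-1* (AT4G37910) were close, at -0.25 and -0.16, and both were lower in all 5. The exception was the copine pair, with *BON2* (AT5G07300) at -0.41, between -0.50 and -0.28, and *BON1* (AT5G61900) outside at -0.53, ranging from -1.70 to 0.31 between ratios. *BON1* and *BON2* encode calcium-dependent phospholipid-binding proteins that restrain defence responses. *BON2* was lower in all 5 ratios and *BON1* was not.

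**Figure D5:**
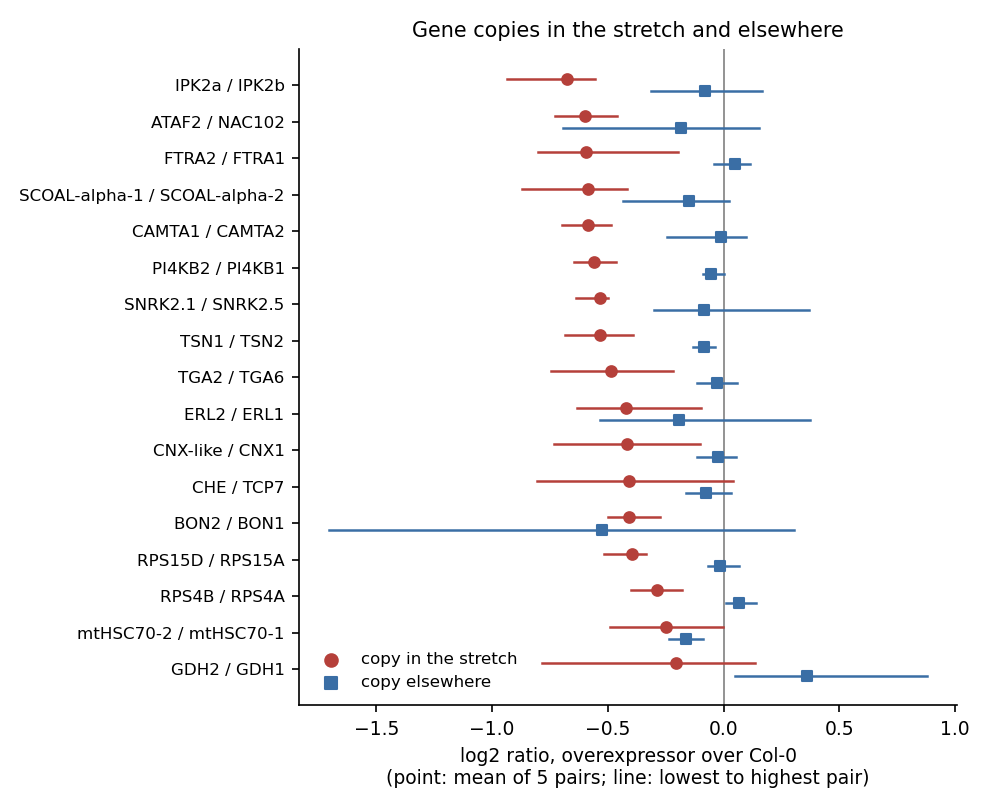
Mean log2 ratio of overexpressor over Col-0 (horizontal axis; lines run from the lowest to the highest of 5 ratios) for 17 pairs of related genes, with the copy in the stretch as a red circle and the copy elsewhere as a blue square. The inside copies have a median of -0.49 and the outside copies of -0.08, and *BON1* is the outside copy that lies below its partner.

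The promoters of the members, taken as 250 bases before to 50 after the annotated start, were searched on both strands for elements tied to MYB and bHLH factors, mitochondrial genes and heat. The site II element (TGGGCC or TGGGCT) was found in 48 of 185 (25.9%), against 26.1% of 18127 promoters of genes with at least 1 CPM. The E-box (CANNTG) was found in 121 (65.4%), against 62.4%, and the heat shock element (GAANNTTC) in 22 (11.9%), against 11.1%. The AC-rich element of MYB factors (ACCTACC or ACCAACC) was found in 7 (3.78%), against 4.73%. The shares of the members were near those of all promoters. Matches to different elements overlapped in 4 member promoters; a match to these letters is not evidence of a bound factor.

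Each of the 4 genes left out of the members lies in the stretch as well. *FLS1*, the flavonol synthase gene, had log2 ratios of -0.62, -1.07 and -0.57 in *TT2* OE and -1.10 and -1.15 in *MYB5* OE, at a mean of 7.83 CPM. *TT7*, for the flavonoid 3'-hydroxylase, had 0.49, 0.15 and 0.25 in *TT2* OE and -0.32 and -0.36 in *MYB5* OE, at 5.11 CPM. It was the measured gene of the 4 whose ratios differed in sign between the lines. *MYB29* and *MYB76*, regulators of aliphatic glucosinolates, had means of 0.880 and 0.0372 CPM, too low for a ratio to be read.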

How the data were processed

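RNA of 8 libraries had been sequenced as paired ends on a NextSeq 500 from NEBNext Ultra Directional libraries, and the authors had mapped the reads to TAIR10 and counted them per gene with CLC Genomics Workbench 10. The values used here are the deposited counts per gene, which are whole numbers; whether the counting used strand is not given in the sources used here, so overlapping and antisense genes cannot be told apart. The table's 24 normalized columns were not used, nor were 4 columns of 1 library that matches no sample analysed here. Total counts of 35496351 to 48428855 per library set the precision; since no molecular identifiers were used, reads may repeat a molecule and counting error is only part of the error. No pair of libraries agreed within sampling noise (lowest chi-square per gene 16.3).

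CPM were computed from the total counts, and log2 ratios of CPM + 0.1 were formed between libraries of a set. Sets came from clustering genes outside the stretch (log2 CPM correlated at 0.987 or more in a set and at 0.961 or less across sets). All 20382 genes passing edgeR's filter on low counts were fitted with edgeR 4.0.16 in R 4.3.3 (TMM factors 0.932 to 1.06, quasi-likelihood test, genotype and set as terms, all 8 libraries), with Benjamini-Hochberg adjustment and a threshold of 0.05. The set term took the dispersion to 0.0107, against 0.130 with genotype alone. Alternatives were DESeq2 1.42.0, genotype alone, other filters and minimum folds, other ends and levels, and leaving out each library. Positions and sequences came from RefSeq TAIR10.1, in which 98.29% of identifiers were found.

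Named members were those called lower in both lines, the 10 lowest and 6 highest by mean ratio, up to 4 of each role list by level, all genes with a listed copy, and 3 genes on each side of each end; *NAC080*, *LAC13*, *RBOHA*, *SRT2*, *ST2A*, *TGA5*, *PGIP2*, *MIR162a*, AT5G07460, AT5G09420, the genes at the minimum level and the promoters shown were added after their values had been seen. The members and the gene lists were chosen with earlier results of these data known. Of the genes this rule names, 1 is not reported here.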

Additional observations from a re-analysis of the deposited data

How the results depend on the processing

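Counts of called members depended on the fit, and the cause was not tested. For members lower in *TT2* OE (61), genotype alone gave 0 and a minimum fold of 1.5 gave 1; leaving out 1 library gave 3 (without R2) to 74 (without N2), with 7 without P2, 8 without M2, 19 without O2 and 41 without S2 or U2. For members higher in *TT2* OE (0), DESeq2 gave 1, no filter 1, and leaving out a library 0 to 1 (1 without S2 or U2), each time AT5G08760. For members lower in *MYB5* OE (6), genotype alone gave 0, DESeq2 35, no filter 15, a minimum fold of 1.5 gave 1, and the fit of *MYB5* OE and Col-0 alone 19; leaving out 1 library gave 1 (without P2) to 15 (without S2), with 2 without N2 or Q2, 3 without M2 or R2, and 11 without U2. The median member log2 ratio moved to -0.41 with no minimum level and to -0.36 with the wider ends AT5G06000 to AT5G10000, and the E-box share was 56.2% in the 250 bases before the start alone.

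Members lower in all 5 ratios numbered 161 of 189 with 1 CPM added, 134 of 152 at 5 CPM or more, 167 of 268 with no minimum level, 152 after TMM scaling, 152 after centring each ratio on all genes and 157 of 185 without the upstream reading frames; the last 2 were chosen after seeing the data. Values of named members under the alternatives were on the same side of the threshold in 1398 of 1650 cases, past it in 78 more, no longer past it in 174, and reversed in 0. No paired analysis was possible because the labels give no replicate numbers to pair libraries by; the fit was instead blocked by the sets found in the data, and the fit without that block is the one with genotype alone.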
